A study of Mus musculus with 8 samples.

Results

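N4-acetylcytidine (ac4C) peaks with the same first and last base in all 4 peak lists of the series were examined as a set, 2663 peaks in all. They were chosen by their limits: chromosome, start and end had to be equal in every list, and the length had to be under 1000 bp. The 4 lists together covered 39860 loci, a locus being a stretch of peaks that overlap by at least 1 bp, and 6160 loci had a peak in every list. Of these, 5584 had strongest peaks under 1000 bp in all lists, and the 2663 peaks with identical limits made up 47.7% of them. The other 2921 loci are the closest comparison and are called the other shared loci.

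The study compared Dif-FGCs, germ cells at day 3 of differentiation, with the undifferentiated female germline stem cells (FGSCs) from which they were derived. Both are mouse ovarian cells of the line labelled FGSCs. Dif-FGCs were obtained by co-culture with granulosa cells, the somatic cells that surround the oocyte, in MEM-α medium with serum, bFGF, retinoic acid and BMP4, whereas the FGSCs were the control group. For each of 2 replicates per group, which the study describes as biological, total RNA was depleted of ribosomal RNA, fragmented and immunoprecipitated (IP) with an ac4C antibody, and an input library was made, giving 8 libraries. The files hold 1 peak list per IP library, with 22480 and 13920 peaks in Dif-FGC 1 and 2 against 22791 and 16290 peaks in FGSC 1 and 2. The lists carry no read counts, so the depth of each library is unknown, and they carry no strand, so a peak where genes overlap could belong to either gene.

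ac4C is an acetyl group on cytidine. In mRNA it is written by NAT10, the acetyltransferase that also modifies ribosomal and transfer RNA, and it is known for effects on mRNA stability and on translation. An antibody peak marks a stretch of transcript over which IP fragments outnumber input fragments. It does not locate the modified base. The shortest listed peaks were 1 and 3 bp in Dif-FGC 1 and 2 against 1 and 1 bp in FGSC 1 and 2. Whether limits come from the peak caller alone or were also cut at annotated transcripts was not tested. A transcript with little RNA in the cells gives few fragments, so fewer transcripts and less ac4C per transcript cannot be told apart by the presence of a peak alone.

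Since 688 peaks with identical limits began exactly at an annotated transcription start site, the sequences around some of these starts are shown. They were taken from RefSeq (GRCm38.p6) for the named genes whose peak begins there, and the bases in capitals are the first 30 transcribed bases, with which the peak opens.
Nudc, chr4:133545998-133546057, minus strand: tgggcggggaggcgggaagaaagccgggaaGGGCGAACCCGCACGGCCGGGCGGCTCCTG
Trim44, chr2:102400871-102400930, minus strand: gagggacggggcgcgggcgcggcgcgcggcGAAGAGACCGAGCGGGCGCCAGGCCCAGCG
Hnrnpd, chr5:99978909-99978968, minus strand: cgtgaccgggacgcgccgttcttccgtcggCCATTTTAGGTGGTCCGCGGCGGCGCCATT
Klhl26, chr8:70476914-70476973, minus strand: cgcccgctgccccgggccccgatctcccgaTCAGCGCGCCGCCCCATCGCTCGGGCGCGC
Ankrd28, chr14:31830386-31830445, minus strand: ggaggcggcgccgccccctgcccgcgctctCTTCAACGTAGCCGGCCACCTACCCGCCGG
Atp5g2, chr15:102671018-102671077, minus strand: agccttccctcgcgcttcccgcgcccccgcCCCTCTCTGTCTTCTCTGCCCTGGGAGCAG
Ccdc86, chr19:10949237-10949296, minus strand: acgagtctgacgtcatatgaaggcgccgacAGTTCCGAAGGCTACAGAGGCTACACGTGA

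The first 3 belong to peaks among the 10 strongest of the set, the next pair to peaks that ranked far lower in Dif-FGCs than in FGSCs, and the last pair to a very short and a very long peak. GC made up between 53.3% (Ccdc86) and 83.3% (Nudc and Klhl26) of the capitals. Over the first 50 transcribed bases, the only ones in the table, the median GC share was 72% at the 654 start sites that could be assigned by gene name to a peak with identical limits, chromosome 18 left out. It was 68% at the 375 start sites where another shared locus began in FGSC 1, 66% over the 10818 start sites of genes with a peak in any list, and 56% over all 32851 start sites of the table. The pattern CNNCNNCNN, the form in which the ac4C motif is usually written, was searched on the transcribed strand of the same 50 bases. It was found at 65.4% of the start sites of peaks with identical limits, 66.1% of those of other shared loci, 59.4% for genes with a peak and 49.3% of all sites. The share at peaks with identical limits was therefore close to that at other shared loci. Among the 7 sequences shown, the pattern lay within the capitals for Nudc, Hnrnpd, Ankrd28 and Klhl26.

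Peaks with identical limits were strong peaks in every list. Strength was read as the percentile of a peak's fold enrichment (IP over input) among all peaks of its list. Their median percentile was 85.8 in Dif-FGC 1, 80.1 in Dif-FGC 2, 84.5 in FGSC 1 and 80.8 in FGSC 2. For the other shared loci the medians were 75.9, 65.4, 72.5 and 64.6 in the same lists. Peaks at loci missing from at least 1 list had medians of 38.8, 33.7, 40.2 and 37.2. In fold enrichment the medians for identical limits were 22.5 and 17.9 in Dif-FGC 1 and 2, and 28.5 and 18.7 in FGSC 1 and 2, against 14.3, 11.2, 17.8 and 10.1 for the other shared loci. The 10% of each list with the highest fold held 39.7% of the set in Dif-FGC 1, 28.8% in Dif-FGC 2, 38.2% in FGSC 1 and 30.3% in FGSC 2. The limits and the fold come from the same deposited peaks, so these values describe the set and were not tested.

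**Figure D1:**
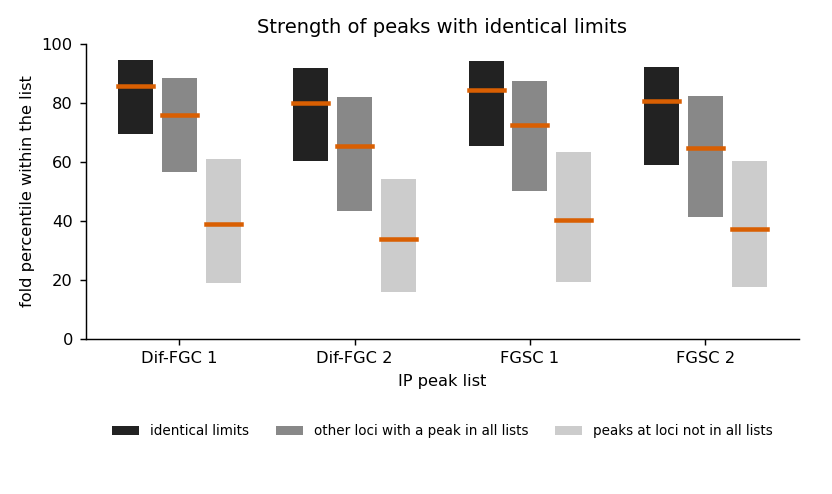
Fold percentile of peaks within each IP peak list, for peaks with identical limits (black), other loci with a peak in all lists (grey) and peaks at loci not in all lists (light grey). Bars span the 25th to 75th percentile of each set and the orange line is its median, which is highest for identical limits in each list (80.1 to 85.8).

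The set did not consist of strong peaks only. When the 5584 loci were ordered by mean fold percentile and cut into 10 groups of equal size, identical limits were found at 32.4% of loci in the weakest group and 77.6% in the strongest. In the weakest group 181 loci still had the same limits in all lists. Weak examples were Hist1h1a, a linker histone gene, with folds of 3.2 and 3.68 in Dif-FGC 1 and 2 against 3.39 and 3.4 in FGSC 1 and 2, and Map4, a microtubule-associated protein, with folds of 3.31 and 3.57 in Dif-FGC 1 and 2 against 4.31 and 5.06 in FGSC 1 and 2. The authors' score reached 3100 or more for 51.1% and 43.4% of the set in Dif-FGC 1 and 2, and for 23.2% and 30.6% in FGSC 1 and 2, against 23.1%, 14.5%, 6.37% and 9.04% of the other shared loci. The authors' false discovery rate (FDR) was high: its median over the set was 63.2% and 100% in Dif-FGC 1 and 2 against 67.5% and 71.3% in FGSC 1 and 2. It was about as high at the other shared loci, with 63.2% and 100% in Dif-FGC 1 and 2 against 69.1% and 71.4% in FGSC 1 and 2.

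Most peaks of the set were short. The median length was 196 bp, with quartiles of 137 and 297 bp, and 64.4% were between 100 and 300 bp, in RNA fragmented to about 200 nt. At the other shared loci the strongest peaks had median lengths of 240 and 269 bp in Dif-FGC 1 and 2 against 217 and 202 bp in FGSC 1 and 2. There the longest and shortest peak of a locus differed by a median of 66 bp between lists. Grouped by length in FGSC 1, identical limits were most frequent from 150 to 200 bp, where they made up 67% of shared loci, and least frequent under 50 bp, at 13.8%. The shortest was a 26 bp peak at Psmc1, which encodes a proteasome ATPase, with folds of 73.98 and 73.93 in Dif-FGC 1 and 2 against 180.7 and 107.75 in FGSC 1 and 2. The limit of 1000 bp left out 42 longer peaks with identical limits. Just inside lay Tnrc18 (999 bp), Aff1 (990 bp) and Ccdc86 (989 bp), and just outside Tsc22d4 (1012 bp), Wrnip1 (1015 bp) and Cald1 (1021 bp).

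**Figure D2:**
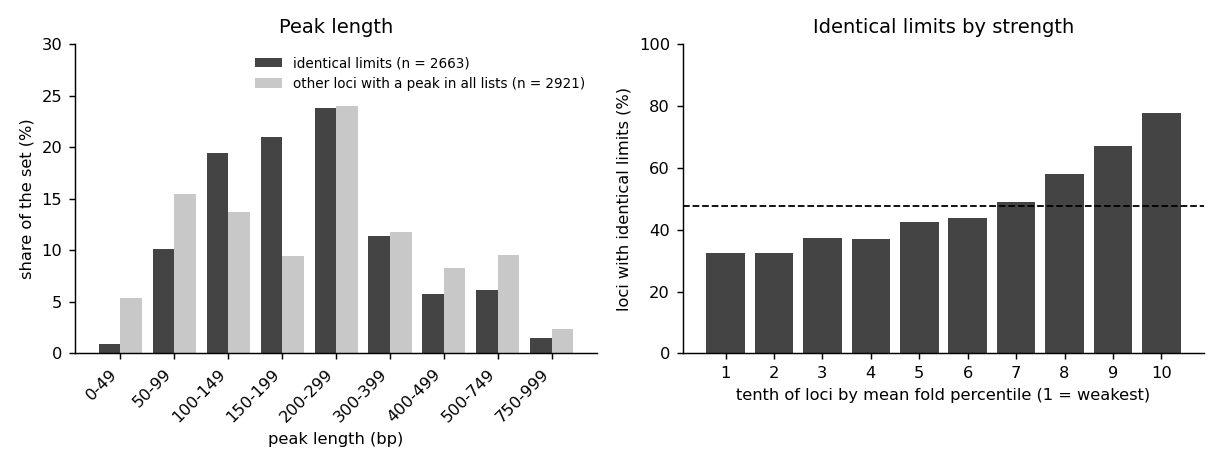
Left, peak length in bp for peaks with identical limits (dark) and other loci with a peak in all lists (light, lengths in FGSC 1), as a share of each set. Right, share of loci with identical limits in 10 groups of the shared loci by mean fold percentile, with the share over all of them (47.7%) as a dashed line and values between 32.4% and 77.6%.

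Sharing of a single limit was also frequent. Of 5505 loci with exactly 1 peak per list, all under 1000 bp, 48.4% shared both limits, 2349 shared 1 limit and 8.96% shared neither. A stranded RefSeq gene could be assigned to 1911 of the 2349, and the shared limit was the 5′ one at 65.9% and the 3′ one at 34.1%. Under 1000 bp, Dif-FGC 1 and 2 had 6510 peaks with identical limits in common, which is 29% and 46.8% of their lists, and FGSC 1 and 2 had 3819, or 16.8% and 23.4%. Pairs with 1 list from each group had between 3982 (Dif-FGC 2 with FGSC 2) and 5146 (Dif-FGC 1 with FGSC 1).

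Peaks with identical limits lay at start sites more often than other peaks. Of the 2663, 688 (25.8%) had a limit exactly at a RefSeq start site on either strand, the 5′ limit by the strand of that site. At the other shared loci the share was 14.4% and 17.9% in Dif-FGC 1 and 2 against 12.8% and 13.8% in FGSC 1 and 2, and at peaks under 1000 bp of loci not in all lists it was 5.06%, 8.53%, 5.92% and 8.59%. Counting any peak that covered a start site, the shares were 39.7% for identical limits and 24% to 31.3% for the other shared loci. Only 14 peaks of the set (0.526%) ended at an annotated gene end. The RefSeq start table does not cover every gene, so some start sites are missed. Matches were not limited to the gene of the peak, so some may belong to another gene. Limits of exons, which could bound the remaining peaks, were not used here.

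Those 688 peaks differed from the rest of the set in length and strength. Their median length was 238 bp, against 180 bp for the other 1975, and their median fold percentile was 90.2 and 85.4 in Dif-FGC 1 and 2, and 90.6 and 88.5 in FGSC 1 and 2, against 83.9, 77.4, 81.5 and 77.3 for the others. Along the gene from start to end, introns included, the peak centre could be placed for 2193 peaks of the set, and 58.2% lay in the first 20% of the gene, against 51.9% of the other shared loci placed. The last 20% held 7.8% of the set and 12.1% of the other shared loci. The median position was 7.19% of the gene length for identical limits and 17.6% for the other shared loci.

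**Figure D3:**
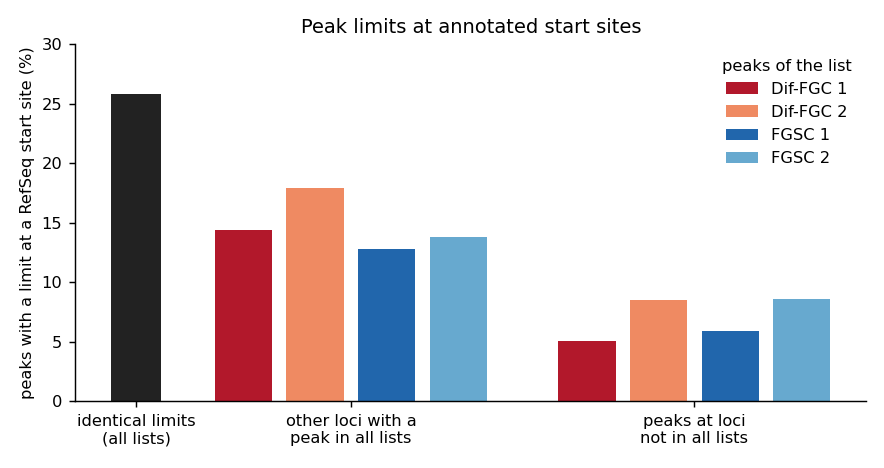
Share of peaks with a limit exactly at a RefSeq start site, in percent, for the 2663 peaks with identical limits (black), for other loci with a peak in all lists and for peaks at loci not in all lists, the last 2 given for each peak list in colour. The share was 25.8% for identical limits, 12.8% to 17.9% for other shared loci and 5.06% to 8.59% for the rest.

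The strongest peak of the set was an 846 bp peak of Aebp2 (chr6:140623499-140624344), a cofactor of the Polycomb complex PRC2. Its folds were 3472 and 1965 in Dif-FGC 1 and 2, the highest of both lists, and 2108 and 4770 in FGSC 1 and 2, where it ranked 3 and 2. Supt5, a subunit of the elongation factor DSIF, had a pair of peaks among the 10 strongest. The stronger (chr7:28338352-28338706) had folds of 3137 and 758.3 in Dif-FGC 1 and 2 against 1966 and 2165 in FGSC 1 and 2, and the weaker (chr7:28331370-28331529) had 1283 and 315.0 in Dif-FGC 1 and 2 against 630.1 and 1378 in FGSC 1 and 2. For both peaks the folds of the groups overlapped, and Dif-FGC 2 was the lowest list.

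Nudc, whose product is a dynein-associated protein of mitosis, carried a 223 bp peak that began at the start site shown above. Its folds were 1881 and 635.7 in Dif-FGC 1 and 2 against 625.2 and 1485 in FGSC 1 and 2. Trim44, a tripartite motif protein that acts on ubiquitin, had 1680 and 732.1 in Dif-FGC 1 and 2 against 445.7 and 995.7 in FGSC 1 and 2. Hnrnpd, an AU-rich element binding protein, had 765.2 and 384.2 in Dif-FGC 1 and 2 against 752.1 and 756.6 in FGSC 1 and 2. Each of these peaks began at the first base of the gene's capitals, and their folds overlapped between groups. The other 4 among the 10 strongest were Anp32b, an acidic histone chaperone, Arglu1, a splicing and nuclear receptor coactivator, Sart3, a recycling factor of spliceosomal U6, and Cdk11b, a kinase that acts in splicing and mitosis. Their folds lay between 368.2 (Anp32b in Dif-FGC 2) and 1325 (Anp32b in FGSC 2). Ranked among the 6160 loci with a peak in every list, 8 of the 10 strongest peaks stood higher in both Dif-FGC lists than in both FGSC lists. Their mean percentiles differed by 0.0244 (Aebp2) to 0.422 (Trim44) points, and the weaker Supt5 peak and Anp32b overlapped. The same rule held for 22.9% of the set and for 21.2% of the loci with other limits. These differences are small and lie at the top of the ranks, so the count is no result about these peaks.

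The Arglu1 peak (561 bp, chr8:8689977-8690537) overlapped the only miRNA of the RefSeq table found in the set, the 70 nt hairpin of miR-7654 on the minus strand. The mature arm within it is given from RefSeq with its seed, bases 2 to 8, in capitals.
mmu-miR-7654-3p: cGAGCGGGagcgcgccucgucc
This peak had folds of 1042 and 555.9 in Dif-FGC 1 and 2 against 570.4 and 743.4 in FGSC 1 and 2. The lists name Arglu1 and not the miRNA as the gene of the peak.

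The 2663 peaks fell in 1913 genes, which is 38.6% of the 4961 genes that had a peak in every list. A single peak of the set was found in 1466 genes, 2 or more in 447, and 5 or more in 37. Genes with such a peak also carried more peaks in all, with a mean of 3.87 and 3.04 in Dif-FGC 1 and 2, and 3.76 and 2.97 in FGSC 1 and 2, against 2.93, 2.03, 2.8 and 2.1 for the other genes with a peak in all lists. In 71 genes with 3 or more peaks of the set, no shared locus under 1000 bp had other limits.

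Eif4g3, a scaffold of the cap-binding complex, carried 10 peaks with identical limits among its 12 shared loci, each of 76 to 218 bp and spread over the gene. Map4k4, a kinase of stress signalling, had 9 of 9. Eif5b, the GTPase that joins the ribosomal subunits at initiation, had 8 of 8, and they were strong throughout. The peak at its start site (chr1:37998010-37998324) had folds of 529.7 and 281.6 in Dif-FGC 1 and 2 against 552.7 and 456.6 in FGSC 1 and 2, and its weakest peak (chr1:38034029-38034103, 75 bp) had 54.63 and 14.63 in Dif-FGC 1 and 2 against 51.86 and 98.99 in FGSC 1 and 2. Smarca4, the ATPase of BAF remodelling complexes, and Myh9, a non-muscle myosin heavy chain, also had 8 of 8.

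Gene lists were compared by the share of shared loci under 1000 bp that had identical limits, which was 47.7% over all of them. In translation factors it was 88.2% (45 of 51 loci, 20 genes), with subunits of the initiation factor eIF3 (Eif3a, Eif3b, Eif3c, Eif3f, Eif3g and Eif3h), eIF4F (Eif4g1 and Eif4g3) and the poly(A)-binding protein gene Pabpc1 among them. Eif3b, an eIF3 core subunit, had folds of 143.9 and 80.55 in Dif-FGC 1 and 2 against 168.0 and 142.4 in FGSC 1 and 2. The share was 75.4% in splicing factors (52 of 69), including the U5 helicase genes Ddx23 and Snrnp200 and the SR-related genes Srrm1, Srrm2 and Son. Ddx23 carried an 87 bp peak with folds of 662.3 and 239.8 in Dif-FGC 1 and 2 against 592.4 and 389.8 in FGSC 1 and 2. Loci of the same gene were counted singly, and Eif4g3, Eif5b and Eif3a held 10, 8 and 6 of the 45. By gene, 83.3% of 24 translation factors and 82.9% of 35 splicing factors with a peak in every list had a peak of the set. The share was 38.6% over all genes with a peak in every list. The median fold percentile of the listed peaks was 79.5 for translation factors and 82.3 for splicing factors, against 79.9 over the whole set.

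Among nuclear factors the share was 68.4% for RNA polymerase II elongation and Mediator (26 of 38), 67.9% for histones, histone chaperones and acidic nuclear phosphoproteins (19 of 28) and 63.3% for chromatin remodelling (38 of 60). Chaf1a alone held 6 of the 19, and Smarca4 held 8 of the 38 in chromatin remodelling. By gene the shares were 56%, 62.5% and 50% in the same order. Rtf1, a subunit of the PAF elongation complex, had folds of 93.85 and 67.97 in Dif-FGC 1 and 2 against 438.9 and 316.3 in FGSC 1 and 2, so its peak ranked lower in both Dif-FGC lists. Chaf1a, the large subunit of the chromatin assembly factor CAF-1, had 234.1 and 168.1 in Dif-FGC 1 and 2 against 357.8 and 480.7 in FGSC 1 and 2. Chd3, an ATPase of the NuRD complex, had 605.0 and 272.0 in Dif-FGC 1 and 2 against 665.6 and 1023 in FGSC 1 and 2. A weaker Chd3 peak had 305.1 and 166.1 in Dif-FGC 1 and 2 against 175.4 and 301.1 in FGSC 1 and 2. Cell cycle genes (18 of 33, 54.5%), histone acetylation and deacetylation (36 of 70, 51.4%) and Polycomb and other histone methylation (27 of 56, 48.2%) were near the share over all loci.

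RNA modification enzymes and readers (12 of 28, 42.9%) and the signalling genes named by the study, of the mTOR, AMPK and Hippo pathways (6 of 16, 37.5%), were below it. The first of these held strong peaks nevertheless. Zc3h13, a subunit of the m6A methyltransferase complex, had folds of 589.8 and 205.7 in Dif-FGC 1 and 2 against 955.0 and 1714 in FGSC 1 and 2. A weaker Zc3h13 peak had 214.2 and 87.82 in Dif-FGC 1 and 2 against 46.49 and 206.7 in FGSC 1 and 2. Fbl, the methyltransferase of C/D box ribonucleoproteins, had 122.7 and 60.7 in Dif-FGC 1 and 2 against 39.15 and 211.6 in FGSC 1 and 2.

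**Figure D4:**
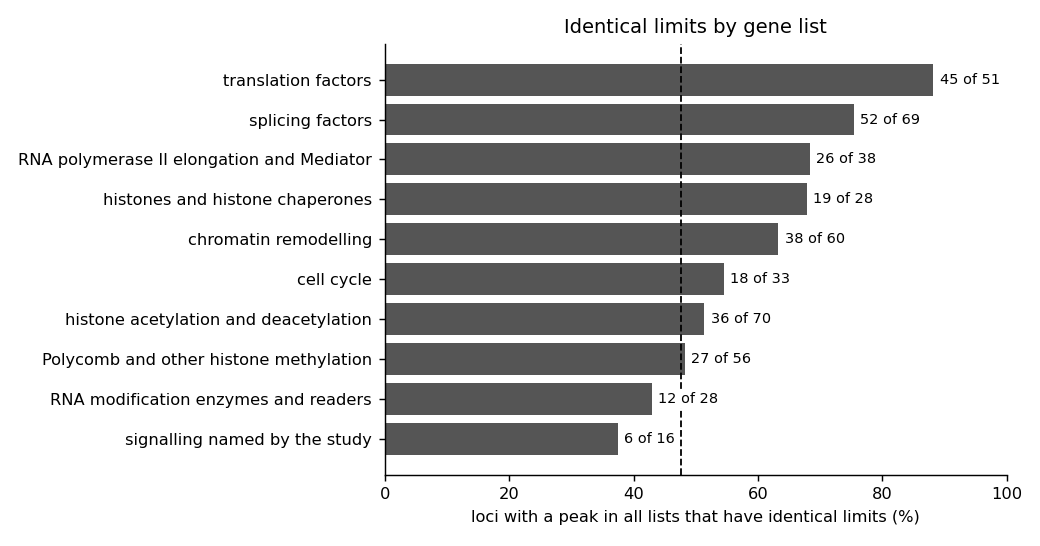
Share of loci with a peak in all lists, under 1000 bp, that have identical limits, for the gene lists with at least 15 such loci. Numbers beside the bars give the loci, and the dashed line marks the share over all such loci (47.7%). Translation factors (88.2%) and splicing factors (75.4%) lie farthest above it.

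Markers of the labelled cells and of their surroundings had few shared loci, so few could enter the set. The lists also differ in size, with 8555 and 6478 genes in Dif-FGC 1 and 2 against 9050 and 8000 in FGSC 1 and 2. Of 29 listed markers of early germ cells and their stem cells 8 and 7 had any peak in Dif-FGC 1 and 2 against 10 and 8 in FGSC 1 and 2. They had 7 shared loci under 1000 bp, of which 3 (42.9%, against 47.7% over all loci) had identical limits. These were the peaks of Etv5, a transcription factor needed for stem cell maintenance in the male germline, and a pair in Kit, the stem cell factor receptor. The stronger Kit peak had folds of 71.69 and 35.27 in Dif-FGC 1 and 2 against 50.61 and 26.73 in FGSC 1 and 2. Of the 22 granulosa cell genes 12 and 6 had a peak in Dif-FGC 1 and 2 against 7 and 4 in FGSC 1 and 2, and their 1 shared locus, at Runx1, was in the set. Of the 17 fibroblast and stromal genes 4 and 2 had a peak in Dif-FGC 1 and 2 against 10 and 8 in FGSC 1 and 2, and 1 of their 2 shared loci, at Fn1, was in the set. Any peak was found for 2 and 0 of 20 oocyte genes in Dif-FGC 1 and 2 against 2 and 1 in FGSC 1 and 2. For the 14 macrophage and leukocyte genes these counts were 6 and 2 against 3 and 5. For the 11 endothelial genes they were 0 and 0 against 1 and 1. Oocyte and endothelial genes had 0 shared loci under 1000 bp and macrophage genes had 1, which had other limits. Among the 31 meiosis genes 9 and 4 had a peak in Dif-FGC 1 and 2 against 11 and 9 in FGSC 1 and 2. Their 1 shared locus was in the set, at Syce2, a component of the synaptonemal complex. The Syce2 peak had folds of 20.19 and 12.62 in Dif-FGC 1 and 2 against 66.56 and 37.1 in FGSC 1 and 2. A peak does not measure the level of a transcript, fewer cells of a type and less RNA per cell cannot be told apart, and the part of other cell types in these results was not tested.

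The authors' GO and pathway terms were compared between genes of the set and the other genes. Poly(A) RNA binding was given to 300 genes of the set (15.7%) against 7.71% of the other genes with a peak in all lists. The nucleus was annotated for 49.5% and 41.1% of them, RNA splicing for 3.5% and 1.48%, rRNA processing for 1.46% and 0.525%, and actin filament binding for 1.73% and 0.492%. Among pathways, Spliceosome was annotated for 2.25% of the genes of the set and 0.689% of the others, and RNA transport for 2.4% and 0.755%. The largest ratio among pathways with at least 15 genes of the set was that of Bacterial invasion of epithelial cells, at 1.46% and 0.394%, and Leukocyte transendothelial migration stood at 1.46% and 0.492%. Among the genes with a peak in every list, all 7 annotated to the Arp2/3 complex, which nucleates branched actin, carried a peak of the set, as did all 6 of the tRNA-splicing ligase complex. Over all genes with a peak in every list the share was 38.6%. These terms were picked for the largest ratio among those with at least 5 genes of the set, so full coverage is part of that choice. Below the others were transmembrane transport (0.784% against 1.54%), extracellular region (1.57% against 3.02%) and lysosome (1.15% against 1.94%). Metabolic pathways, the most frequent pathway term, was given to 5.85% of genes of the set and 6.53% of the others. Genes with more peaks had more chances to hold one with identical limits, and the terms were not tested for enrichment.

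Dif-FGC and FGSC lists overlapped in rank for most of these peaks. For this comparison the fold of the strongest peak at each of the 6160 loci was turned into a percentile among those loci, in each list. The percentile of a peak with identical limits was higher in both Dif-FGC lists than in both FGSC lists for 611 peaks (22.9%), where 21.2% of the loci with other limits met the same rule. It was lower in both Dif-FGC lists for 575 peaks (21.6%), where the background was 19.5%. By fold, both shares are near the background and are no result about the set. The groups overlapped for the remaining 1477 peaks. The median difference, Dif-FGC minus FGSC, was 0.308 percentile points, and the 5th and 95th percentiles of the difference were -32.3 and 28.3, and replicates differed by a median of 9.76 points in Dif-FGCs and 12.1 in FGSCs. With the authors' score in place of fold, 513 peaks (19.3%) were higher in both Dif-FGC lists, where the background was 20.7%, and 939 peaks (35.3%) were lower, where it was 24.5%. The balance of directions and its distance from the background thus depend on the measure. Many strong peaks carried the same score of 3100 and so tied in rank by score. The share of the set with a score of 3100 or more also differed between lists, as given above. The part of these ties in the counts by score was not tested.

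Ranks of fold were more alike between lists for identical limits than for the other shared loci. Over the 2663 peaks Spearman's rho of fold was 0.826 between the Dif-FGC lists, 0.744 between the FGSC lists and 0.655 to 0.738 between a Dif-FGC and an FGSC list. Over the 2921 other shared loci it was 0.654, 0.508 and 0.501 to 0.541. These are correlations across peaks, which share libraries and transcripts, and are descriptions only.

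Single peaks nevertheless ranked far apart in the groups. Lower in both Dif-FGC lists were 94 bp at the start of Klhl26, a BTB and kelch domain protein, with folds of 3.79 and 6.65 in Dif-FGC 1 and 2 against 83.35 and 119.3 in FGSC 1 and 2, and 89 bp at the start of Ankrd28, an ankyrin-repeat subunit of a phosphatase complex, with 8.55 and 3.98 in Dif-FGC 1 and 2 against 123.5 and 97.77 in FGSC 1 and 2. Eif2ak1, a kinase of the initiation factor eIF2α, had 4.92 and 2.61 in Dif-FGC 1 and 2 against 73.21 and 34.75 in FGSC 1 and 2. Cdc6, a licensing factor of DNA replication, had 5.69 and 8.18 in Dif-FGC 1 and 2 against 51.66 and 59.57 in FGSC 1 and 2. Vprbp, a substrate receptor of the CUL4 ubiquitin ligase, had 8.77 and 6.05 in Dif-FGC 1 and 2 against 60.91 and 252.3 in FGSC 1 and 2. These peaks were chosen among those whose percentiles did not overlap between groups, so the separation of their folds is part of the choice.

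In the other direction, Ezr, which encodes the membrane linker ezrin, had folds of 63.15 and 26.84 in Dif-FGC 1 and 2 against 9.21 and 5.66 in FGSC 1 and 2. Lrp8, a reelin receptor, had 40.66 and 20.2 in Dif-FGC 1 and 2 against 6.1 and 4.55 in FGSC 1 and 2. Cbfa2t3, a transcriptional corepressor, had 18.46 and 26.24 in Dif-FGC 1 and 2 against 4.48 and 5.04 in FGSC 1 and 2. Pcbp4, a poly(C)-binding protein, had 29.51 and 39.44 in Dif-FGC 1 and 2 against 10.57 and 7.23 in FGSC 1 and 2. A 123 bp peak of Eif4g3 had 23.39 and 18.73 in Dif-FGC 1 and 2 against 9.79 and 2.64 in FGSC 1 and 2. Most other Eif4g3 peaks of the set overlapped between groups in percentile. A neighbouring one (chr4:138103315-138103412) had 20.74 and 28.89 in Dif-FGC 1 and 2 against 30.77 and 5.96 in FGSC 1 and 2. The peaks named for a higher rank were again chosen among those whose percentiles did not overlap between groups. By score the percentile difference of Ezr was 26.2 points, against 64.3 by fold. The predicted genes Gm8991 (higher) and Gm7729 (lower) completed the 12 peaks with the largest differences. These peaks were picked for the size of their difference, and with 2 lists per group no test was made.

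**Figure D5:**
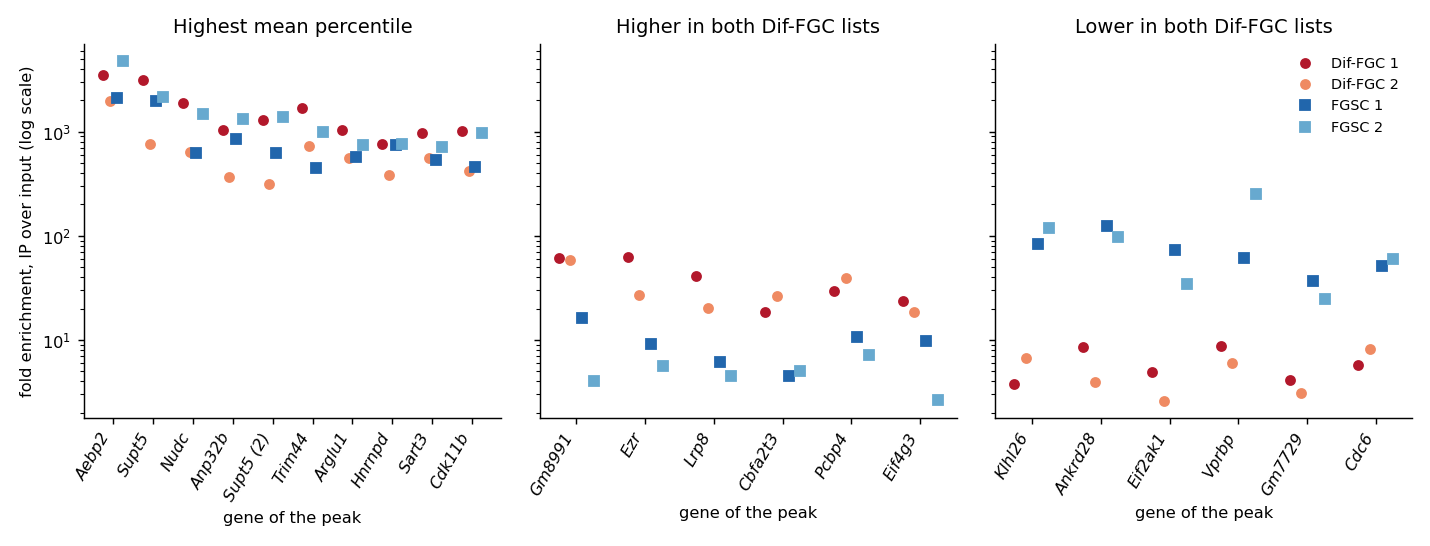
Fold enrichment (IP over input, log axis) in each list for the 10 peaks with the highest mean percentile, with a (2) after the weaker Supt5 peak, and for the 6 peaks with the largest percentile difference in each direction. Circles are Dif-FGC lists and squares FGSC lists. The strongest peaks overlap in fold between groups, from 315.0 to 4770. The other 12 were chosen among peaks whose percentiles do not overlap between groups, so their separation is part of the choice.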

How the data were processed

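Processed peak lists of 4 IP libraries were used, 2 Dif-FGC and 2 FGSC, grouped by sample title. For trimming, alignment and peak calling the submitters' notes list cutadapt, HISAT2 and MACS2, without versions, and the build is mm10. The authors called peaks per IP library against its input and deposited those assigned to mRNAs, with gene, GO and pathway names. The deposited fold is the IP to input ratio, the deposited score is -10 times the log10 of the p-value, and the authors' FDR is a percent. The form of these columns resembles MACS releases before MACS2, so their exact definitions are not settled. No column was left unassigned to a library (0).

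Limits were taken as 0-based and half-open, and positions are printed counted from 1. Fold percentiles, loci merged at 1 bp overlap and shares were computed in Python 3.11.15 with pandas 2.3.3 and numpy 2.4.6, and correlations with scipy 1.17.1. The functions were tested on simulated lists. A locus was represented by its strongest peak in each list. Start sites came from RefSeq tables of GRCm38.p6. Of the 1913 genes, 1812 matched by symbol and 98 by synonym. Planned checks of exon limits and of sequence inside peaks need a genome, so start-site sequence is shown instead.

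Named peaks were the 10 strongest and 5 weakest by mean percentile, the 5 longest and 5 shortest, the 6 with the largest difference in each direction, up to 4 per gene list, genes with most peaks, leading terms, and those next to 1000 bp. Terms and pathways with the largest or smallest ratio at higher minimum gene numbers were added after their values were seen. The peak set, the 18 gene lists and all comparisons were chosen with earlier results of these data known. No test was run, because limits chose the set and each group has 2 lists. A few genes and an annotation term are not reported here.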

Additional observations from a re-analysis of the deposited data

How the results depend on the processing

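The number of peaks with identical limits, 2663, lay between 2936 and 4019 when 1 list was left out, and the highest value, without FGSC replicate 2, exceeded 1.5 times the count. The other alternatives gave 1792 (upper 50% of each list by fold) to 3438 (limits within 25 bp). The median length, 196 bp, was 198 bp with no limit on length and 187 bp with limits within 25 bp. The median percentile, averaged over the lists of a group, was 82.9 in Dif-FGCs and 82.6 in FGSCs. It was 87.5 in Dif-FGCs by score, and 60.9 in Dif-FGCs and 61.5 in FGSCs when percentiles were taken over shared loci only. Leaving out 1 list gave 893 to 1023 peaks higher and 893 to 1009 lower in Dif-FGCs, by construction of a rule with fewer lists, and the loci with other limits moved to 34.9% to 38.6% and 32% to 35.6%. By score 939 (35.3%) were lower, against 24.5% of the other loci, and the cause was not tested. The share with a limit at a gene start or end, 26.2%, was 28.7% within 5 bp. For the 12 peaks named for their difference, 0 of 72 values changed sign, but 28 moved by more than the spread between replicates. These peaks were chosen for percentiles that do not overlap between groups. Leaving out 1 list therefore cannot change their sign, and the values without 1 list are no check of direction. By score Gm8991 fell to 30.1 points, against 66.7 by fold, and Ezr to 26.2, against 64.3. No paired analysis was possible because no result came from a test. Depth is unknown, so a peak missing from a list may be one that could not be called.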

Other observations

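Of the 2663 peaks with identical limits 3 lay on chromosome Y, where 1 other shared locus was found. A pair belonged to Erdr1, with folds of 26.96 and 20.27 in Dif-FGC 1 and 2 against 26.13 and 17.8 in FGSC 1 and 2 for the first, and of 26.96 and 14.25 in Dif-FGC 1 and 2 against 30.8 and 18.92 in FGSC 1 and 2 for the second. The third belonged to the predicted gene Gm21857, with 15.49 and 14.03 in Dif-FGC 1 and 2 against 8.33 and 10.4 in FGSC 1 and 2. Erdr1 lies in the region that chromosomes X and Y share, and how the authors placed reads of such copies is not given in the sources used here.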
